A study of Mus musculus with 25 samples.

Results

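The regions described here are H3K9me3 peaks called inside 3 zinc finger gene clusters of the mouse genome. A peak was a member when its whole interval lay in 1 of 3 windows of the mm10 build: chr2:175000000-178500000, chr4:145000000-148000000 and chr13:65000000-68000000. The 12 H3K9me3 peak lists of the series held 2406 such peaks among 20998, of which 38 lay in the chromosome 2 window, 1237 in the chromosome 4 window and 1131 in the chromosome 13 window. The lists came from chromatin immunoprecipitation sequencing (ChIP-seq) of regenerating tibialis anterior myofibers at 14 days post injury (dpi), with 3 libraries in each of 4 genotypes. Common to all animals were Pax7-Cre(ERT2), which gives tamoxifen-dependent recombination in satellite cells, and mito-Dendra2, a fluorescent mitochondrial label for these cells and what they form. All received tamoxifen at 75 mg/kg daily for 5 days, and 2 days later 50 µL of 1.2% BaCl2, which kills myofibers and starts regeneration. Wild-type animals carried no further allele named in the labels. The mfn2-/- animals carried a conditional knockout of mitofusin 2, an outer membrane protein of mitochondria needed for their fusion, and the vhl-/- animals one of the factor that marks HIF1α for degradation. The HIF1dPA animals conditionally expressed a HIF1α with proline to alanine changes, which VHL does not recognize. The Cre acts in satellite cells, the stem cells of muscle, so nuclei of other origin keep intact alleles. The labels give neither sex nor strain background. The study describes the libraries of a genotype as biological replicates and counts mice per group, while the labels do not tie a library to a mouse, so p-values measure the spread between libraries.

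Zinc finger genes of the KRAB type code for DNA-binding repressors, many of which recognize transposable elements. They arose by repeated duplication and stand in clusters whose members resemble each other closely. In many cell types these clusters carry H3K9me3, a histone mark of silent chromatin laid down by enzymes such as SETDB1 together with the corepressor TRIM28. The chromosome 4 and chromosome 13 clusters also hold pseudogenes and noncoding transcripts between their zinc finger genes.

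Each list gives a peak's interval, a score of 10 times the negative log10 of the p-value, and the gene and feature class to which the authors assigned it. The score of window peaks ran from 50.02 to 1069.02, with a median of 75.0, and the lowest score in the lists stands for a p-value of 1e-05. Read totals were not used here and sequencing depth is unknown, so a difference in peak number is a difference in what was called. Fewer marked nuclei and less mark per nucleus cannot be told apart. The lists differed in length: wild-type lists held 2885 to 3176 H3K9me3 peaks and mutant lists 887 to 1709. For that reason the peak number of each window is given beside its share of the list's autosomal peaks. For some windows the number among the 887 highest scoring peaks of each list is given too, 887 being the length of the shortest. Promoters touched, covered length and peaks per bin or per gene are given as called, so list length was not taken out of them. Bins that separated all mutants from wild-type were also counted by percent of autosomal peaks. A score percentile is a peak's rank within its own list, with 100 as the highest. Cell type markers were looked up too, but repressive marks give no expression level. The share of all genes without a peak was not counted, so these values cannot check the tissue label. Of the myofiber markers, 0 of 6 genes (Acta1, Ckm, Ttn, Des, Myh1, Myh4) had a peak of either repressive mark in any list. Of 3 endothelial markers Cdh5 had an H3K9me3 peak in 1 list and Pecam1 and Kdr had none of either mark. Of 3 fibroblast markers Dcn had H3K9me3 in 1 list, Pdgfra had H3K27me3 in 9 and Col1a1 had neither. Of 3 immune markers Ptprc and Itgam had H3K27me3 in 1 list each and Cd68 had neither mark.

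Promoter sequences of the clusters repeat each other in part. Of 163 RefSeq promoters in the windows (250 bases before to 50 bases after each start), 75 (46.0%) shared at least 1 run of 50 bases, letter for letter on the gene's own strand, with a promoter elsewhere in the table, compared with 7.62% of all 32851 promoters. Only 34 of the 95 genes to which window peaks were assigned had a promoter in that table. Window H3K9me3 peaks touched 18 of the 163 promoters in at least 1 list, 7 on chromosome 4, 11 on chromosome 13 and 0 on chromosome 2, and touched none in all 12 lists. The chromosome 4 promoters touched in the most lists are shown first, with their RefSeq sequence on GRCm38.p6. Capitals mark bases that lie in a 50-base run found in another promoter of the same window.
Zfp985 (chr4:147553027-147553326, plus strand): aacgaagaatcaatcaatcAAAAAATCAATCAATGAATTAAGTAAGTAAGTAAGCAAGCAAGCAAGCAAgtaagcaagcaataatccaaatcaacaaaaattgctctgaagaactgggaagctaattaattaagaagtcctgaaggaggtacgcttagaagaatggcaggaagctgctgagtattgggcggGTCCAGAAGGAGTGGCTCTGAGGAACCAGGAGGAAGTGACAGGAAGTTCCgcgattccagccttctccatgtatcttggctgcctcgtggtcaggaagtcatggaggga
Zfp979 (chr4:147642459-147642758, minus strand): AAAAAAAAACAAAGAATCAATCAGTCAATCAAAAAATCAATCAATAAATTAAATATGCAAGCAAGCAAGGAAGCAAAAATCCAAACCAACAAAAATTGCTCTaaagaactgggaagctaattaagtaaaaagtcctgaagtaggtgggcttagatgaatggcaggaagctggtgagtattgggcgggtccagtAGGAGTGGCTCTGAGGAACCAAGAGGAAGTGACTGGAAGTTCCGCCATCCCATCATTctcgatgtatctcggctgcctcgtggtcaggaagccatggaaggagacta
Zfp987 (chr4:146097062-146097361, plus strand): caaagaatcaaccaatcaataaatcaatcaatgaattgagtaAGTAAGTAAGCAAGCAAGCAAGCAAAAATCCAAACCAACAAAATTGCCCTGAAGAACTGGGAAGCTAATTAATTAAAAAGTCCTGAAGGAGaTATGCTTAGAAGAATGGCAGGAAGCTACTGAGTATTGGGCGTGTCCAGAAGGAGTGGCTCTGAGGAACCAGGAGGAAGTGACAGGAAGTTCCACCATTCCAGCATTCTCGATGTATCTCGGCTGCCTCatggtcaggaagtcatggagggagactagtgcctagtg

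The Zfp985 promoter was touched in 6 lists (3 wild-type, 1 of each mutant), and 100 of its 300 bases lay in runs shared with Zfp534, Zfp987 or Zfp988. The Zfp979 promoter was also touched in 6 lists (2 wild-type, 0 mfn2-/-, 2 vhl-/-, 2 HIF1dPA), with 159 shared bases. The Zfp987 promoter was touched in 3 lists, 2 of them wild-type, and 219 of its bases were shared. On chromosome 13 the promoters touched in the most lists belonged to transcripts without a zinc finger name, and none of them was touched in a wild-type or mfn2-/- list.

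Gm17353 (chr13:65896933-65897232, plus strand): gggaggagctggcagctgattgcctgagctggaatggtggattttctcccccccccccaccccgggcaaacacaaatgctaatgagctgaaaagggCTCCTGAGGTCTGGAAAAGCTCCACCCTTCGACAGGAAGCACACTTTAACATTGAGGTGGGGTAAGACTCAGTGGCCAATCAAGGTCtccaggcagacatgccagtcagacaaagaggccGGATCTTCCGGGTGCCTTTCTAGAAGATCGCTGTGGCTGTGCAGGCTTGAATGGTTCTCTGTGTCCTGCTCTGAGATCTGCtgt
2410141K09Rik (chr13:66441069-66441368, minus strand): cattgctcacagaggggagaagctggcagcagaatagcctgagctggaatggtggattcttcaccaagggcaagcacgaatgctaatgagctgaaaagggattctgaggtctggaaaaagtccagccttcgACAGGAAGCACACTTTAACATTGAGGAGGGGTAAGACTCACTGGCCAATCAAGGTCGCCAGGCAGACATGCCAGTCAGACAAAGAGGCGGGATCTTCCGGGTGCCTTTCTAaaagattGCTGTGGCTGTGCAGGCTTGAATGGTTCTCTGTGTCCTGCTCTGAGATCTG

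The Gm17353 promoter was touched in 4 lists (1 vhl-/-, 3 HIF1dPA) and shared runs with 2410141K09Rik and Zfp640, among others. The 2410141K09Rik promoter was touched in 4 lists (2 vhl-/-, 2 HIF1dPA), with 162 shared bases. Per list, 3.67 ± 0.577 promoters of the chromosome 4 window were touched in wild-type lists, 1.00 ± 1.00 with mfn2-/-, 1.33 ± 0.577 with vhl-/- and 1.67 ± 2.08 with HIF1dPA (SD, n = 3 each). In the chromosome 13 window the same numbers were 0.333 ± 0.577, 0.0, 2.33 ± 0.577 and 6.0 ± 2.65. In the same order, lists held on average 181, 68.7, 77.0 and 86.0 peaks in the chromosome 4 window. On chromosome 13 they held 50.3, 37.3, 142 and 148. The promoter numbers were not set against these peak numbers, so they are no measure of a preference for promoters. A read from a shared run can match several places, and how such reads were placed is not given in the sources used here. Its part in the peaks was not tested.

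To ask whether the clusters stood apart from other autosomal H3K9me3 in these myofibers, window peaks were compared with the remaining autosomal peaks of the same list. Window peaks were wider and higher in rank in 12 of 12 lists. Their median width was 953 to 1241 bp per list, compared with 574 to 620 bp elsewhere, and their median score percentile 73.8 to 81.4, compared with 43.2 to 48.9. The difference was not alike in each window. In wild-type lists the chromosome 13 median width was 594 to 668 bp, compared with 591 to 594 bp outside the windows. The widest window peak of a list measured from 6419 to 15185 bp. By the authors' feature classes, which reach 3 kb from a start, 26.0% ± 4.44 of window peaks lay at promoters (SD over 12 lists). Elsewhere it was 12.1% ± 1.62, lower in 12 of 12 lists. The windows were again not alike. On chromosome 4 the genotype means ran from 32.0% to 45.0%. On chromosome 13 they were 10.6% (wild-type), 23.4% (mfn2-/-), 9.83% (vhl-/-) and 9.44% (HIF1dPA), so only mfn2-/- lay above the value elsewhere. Peaks in 3′ UTRs made up 4.70% ± 1.91 of window peaks and 2.23% ± 0.350 of the others (higher in 11 of 12 lists). Distal intergenic peaks made up 45.3% ± 14.4 and 62.9% ± 2.38 (lower in 12 of 12). On chromosome 13 alone they made up 51.9% (wild-type), 54.5% (mfn2-/-), 77.4% (vhl-/-) and 81.3% (HIF1dPA), the last 2 above the value elsewhere. Window peaks on chromosomes 4 and 13 also recurred more between lists. Of 508 regions made by merging overlapping window peaks, 46.1% were found in 1 list, compared with 84.3% of 11350 autosomal regions, which include them. By window it was 29.1% on chromosome 4, 52.3% on chromosome 13 and 85.2% on chromosome 2. Regions in all 12 lists made up 6.86% on chromosome 4, 0.327% on chromosome 13 and 0.0% on chromosome 2, compared with 0.308% of autosomal regions. The whole set of autosomes had 35 regions with a peak in all 12 lists, and 13 of them lay in the windows, 12 on chromosome 4 and 1 on chromosome 13.

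The chromosome 4 window had fewer peaks in every mutant list than in every wild-type list. Wild-type lists held 187, 175 and 180 peaks there. The mfn2-/- lists held 69, 67 and 70, the vhl-/- lists 69, 72 and 90, and the HIF1dPA lists 86, 96 and 76. Wild-type and mutant lists did not overlap, and the mutant lists ran from 67 to 96. The ratio of mutant to wild-type geometric means, taken after adding 1, was 0.427 (exact permutation test of 3 against 9 libraries, two-sided p = 0.00455, the smallest possible, adjusted p = 0.0146), and the 4 genotypes differed (exact p = 0.00156, adjusted p = 0.00857). Adjusted p-values are Benjamini-Hochberg values over 33 tests. Taken singly, mfn2-/- stood at a ratio of 0.384, vhl-/- at 0.427 and HIF1dPA at 0.477, and no exact p could fall below 0.1 with 3 against 3 libraries. As a share of autosomal peaks the difference was smaller: 7.97% ± 0.665 (wild-type), 6.92% ± 1.62 (mfn2-/-), 6.63% ± 0.214 (vhl-/-) and 6.09% ± 0.544 (HIF1dPA) (SD, n = 3 each), which did not pass after adjustment (exact p = 0.0318, adjusted p = 0.0583). Among the 887 highest scoring peaks of each list, the window held 114 ± 4.36 peaks (wild-type), 62.7 ± 3.79 (mfn2-/-), 67.3 ± 11.0 (vhl-/-) and 71.3 ± 2.52 (HIF1dPA) (mutant to wild-type ratio 0.59, exact adjusted p = 0.0115), so the lower number was also present at equal list length. Covered length in the window followed the number, with 354700 ± 26080 bp (wild-type), 131300 ± 14880 (mfn2-/-), 169500 ± 40140 (vhl-/-) and 181300 ± 17500 (HIF1dPA).

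The chromosome 13 window showed another order. Wild-type lists held 59, 47 and 45 peaks and mfn2-/- lists 37, 34 and 41. The vhl-/- lists held 140, 135 and 150, and the HIF1dPA lists 152, 153 and 138. Every vhl-/- and HIF1dPA list therefore had more than 2 times as many peaks as any wild-type list, while every mfn2-/- list had fewer than any wild-type list. The 4 genotypes differed (exact p = 0.00026, adjusted p = 0.00286). Taken singly, mfn2-/- stood at 0.750 times wild-type, vhl-/- at 2.80 times and HIF1dPA at 2.91 times (exact p = 0.1 throughout), and with mutants moving both ways the comparison of 9 mutant with 3 wild-type lists did not pass (ratio 1.83, exact p = 0.182, adjusted p = 0.25). As a share of autosomal peaks the window took 2.23% ± 0.423 (wild-type), 3.72% ± 0.613 (mfn2-/-), 12.3% ± 1.06 (vhl-/-) and 10.5% ± 1.36 (HIF1dPA) (4 genotypes: exact p = 0.000455, adjusted p = 0.00375). Here every mutant list lay above every wild-type list (difference of 6.63 percentage points, exact p = 0.0182, adjusted p = 0.0353, a call lost when any 1 of the 6 vhl-/- and HIF1dPA libraries was left out). The number in mfn2-/- was thus below wild-type and the share above it. Among the 887 highest scoring peaks, the window held 16.3 ± 2.08 (wild-type), 31.3 ± 2.52 (mfn2-/-), 123 ± 4.04 (vhl-/-) and 120 ± 3.51 (HIF1dPA), and the mutant to wild-type ratio was 4.54 (exact adjusted p = 0.0115).

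**Figure D1:**
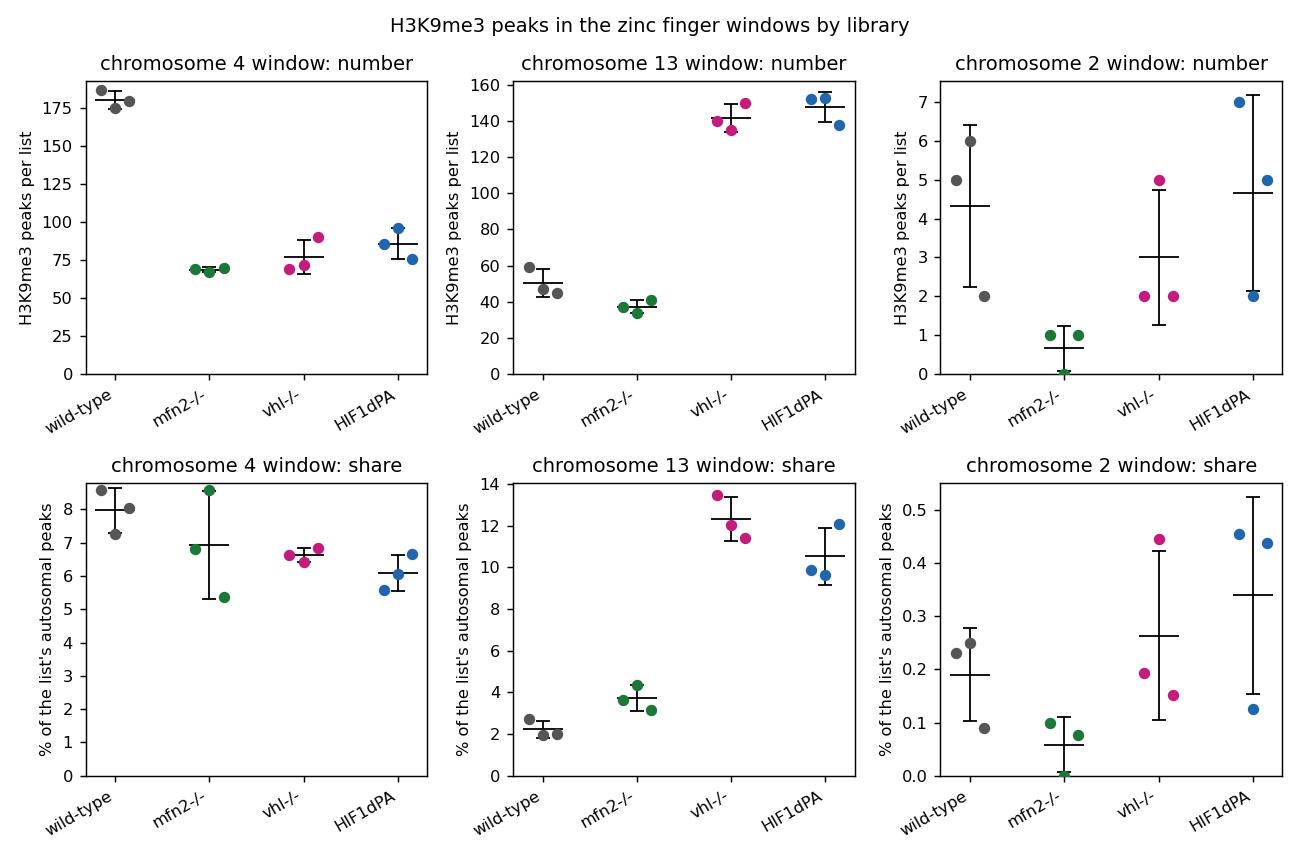
H3K9me3 peaks per list (top) and their share of the list's autosomal peaks in percent (bottom) in the 3 windows. Points are libraries, horizontal bars the mean and whiskers the SD of 3 libraries. On chromosome 4 the 3 wild-type lists (175 to 187 peaks) lie above all 9 mutant lists (67 to 96), and on chromosome 13 the vhl-/- and HIF1dPA lists (135 to 153) lie above the wild-type and mfn2-/- lists (34 to 59).

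The balance between both clusters changed accordingly. Of all window peaks, 21.3% ± 1.94 lay in the chromosome 13 window in wild-type lists, 35.0% ± 1.51 with mfn2-/-, 64.0% ± 2.20 with vhl-/- and 62.0% ± 1.03 with HIF1dPA (SD, n = 3 each). Wild-type lists ranged from 19.8% to 23.5% and mutant lists from 33.7% to 66.4%. The 9 mutant lists averaged 32.3 percentage points more than wild-type (exact p = 0.00455, the smallest possible, adjusted p = 0.0146), and the 4 genotypes differed (exact p = 0.000195, adjusted p = 0.00286). Summed over the 3 windows, the number was close in 3 genotypes: 251, 228 and 227 peaks in wild-type, 211, 212 and 242 in vhl-/- and 245, 251 and 219 in HIF1dPA, compared with 107, 101 and 112 in mfn2-/- (4 genotypes: exact p = 0.00675, adjusted p = 0.0186). The windows took 10.4% ± 1.05 of autosomal peaks in wild-type lists, 10.7% ± 2.19 with mfn2-/-, 19.2% ± 0.989 with vhl-/- and 17.0% ± 1.93 with HIF1dPA (exact p = 0.0024, adjusted p = 0.0113).

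**Figure D2:**
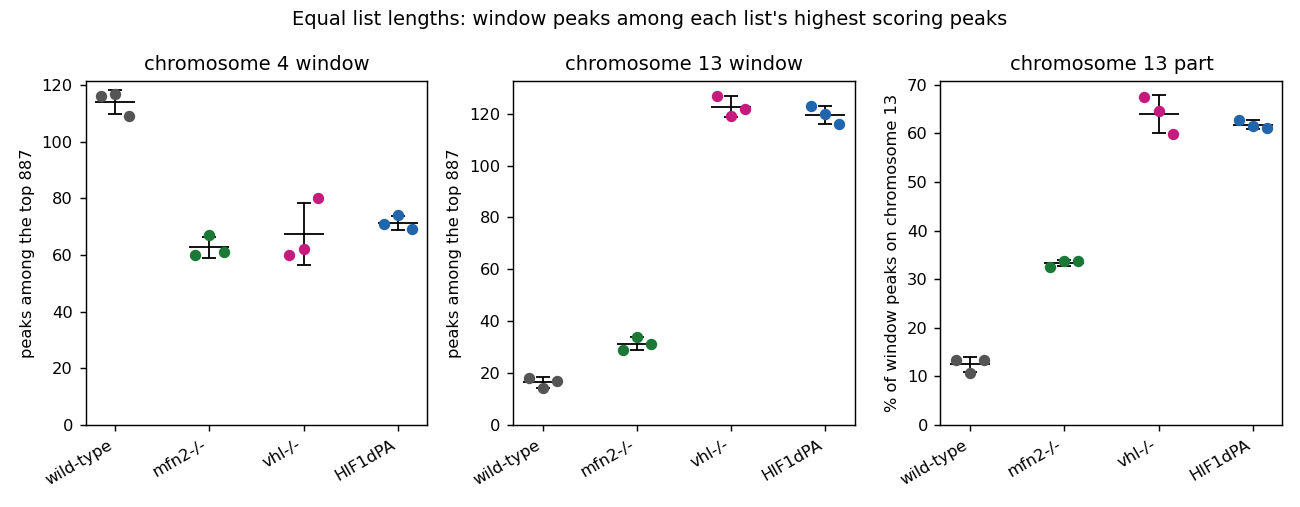
Window peaks among the 887 highest scoring peaks of each list on chromosome 4 (left) and chromosome 13 (middle), and the percent of those window peaks that lie on chromosome 13 (right). Points are libraries, bars the mean and whiskers the SD of 3 libraries. At equal length the wild-type lists keep the most chromosome 4 peaks (mean 114) and the fewest chromosome 13 peaks (mean 16.3).

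The chromosome 2 window was nearly free of called H3K9me3 peaks. Of its 56 promoters, 62.5% shared a 50-base run with another promoter, compared with 47.5% on chromosome 4 and 31.3% on chromosome 13. How reads from such runs were placed is not given in the sources used here. Their part in the low number of peaks was not tested. Wild-type lists held 5, 6 and 2 peaks, mfn2-/- lists 1, 0 and 1, vhl-/- lists 2, 5 and 2 and HIF1dPA lists 7, 2 and 5. The mfn2-/- lists lay below all others, which overlapped, and the difference among 4 genotypes did not pass after adjustment (exact p = 0.0384, adjusted p = 0.0668). The ratio of mutants to wild-type was 0.630 (exact p = 0.295). As a share of autosomal peaks the window took 0.19% ± 0.0873 (wild-type), 0.0584% ± 0.0518 (mfn2-/-), 0.263% ± 0.159 (vhl-/-) and 0.339% ± 0.185 (HIF1dPA) (SD, n = 3 each). The 4 genotypes did not differ by share (exact p = 0.137, adjusted p = 0.206). RefSeq has 10 zinc finger-named genes in this window, compared with 18 on chromosome 4 and 28 on chromosome 13. The count rests on symbols alone, so a zinc finger gene under another symbol is not in it. The promoter of Gm14391, for example, shared runs with 30 promoters of the window, as did that of Zfp970. Gm14412 had a peak in 8 lists, more than any other gene of the window. It had 1 peak in each wild-type list, 0 in each mfn2-/- list, 1, 0 and 1 in vhl-/- and 1, 2 and 1 in HIF1dPA. Zfp970, Zfp971 and Zfp931, of the zinc finger group, had peaks in 3, 2 and 2 lists.

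At full list length no difference among genotypes in median width over the 3 windows passed the test. Per list it ran from 994 to 1174 bp (wild-type), 1056 to 1241 (mfn2-/-), 953 to 1106 (vhl-/-) and 1022 to 1182 (HIF1dPA), all overlapping (exact p = 0.373, adjusted p = 0.44). Among the 887 highest scoring peaks, however, mutant window peaks were narrower (ratio 0.756, exact adjusted p = 0.0115). Width was not tested by window. On chromosome 4 the median was 1270 ± 78.2 bp in wild-type and 1505 ± 130 over the 9 mutant lists at full length, but 1675 to 1792 bp and 1464 to 1934.5 bp among the 887 highest scoring peaks, where the groups overlapped. On chromosome 13 it was 639 ± 39.3 and 839 ± 84.5 at full length, and 738.5 to 962 bp and 761 to 1132 bp, again overlapping, among the 887. For the median score percentile over all window peaks none passed either (76.4 ± 2.40 in wild-type and 77.0 ± 2.47 in mutants; exact p = 0.595 for 4 genotypes). By window, the percentile moved in opposite directions. On chromosome 13 it was 55.3 ± 7.45 (wild-type), 75.3 ± 0.839 (mfn2-/-), 76.7 ± 1.96 (vhl-/-) and 77.5 ± 3.88 (HIF1dPA), and every mutant list ranked above every wild-type list (difference of 21.2 points, exact p = 0.00455, adjusted p = 0.0146). On chromosome 4 it was 84.0 ± 2.62 in wild-type and 77.6 ± 3.40 in mutants (difference of -6.36 points, exact p = 0.0182, adjusted p = 0.0353). The call was lost when wild-type replicate 1 or 2, vhl-/- replicate 2 or 3, or HIF1dPA replicate 2 or 3 was left out (adjusted p up to 0.126), and the difference was 0.279 and not called among the 887 highest scoring peaks (exact adjusted p = 0.97).

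Within the windows, peaks stood in dense blocks. On chromosome 4 a stretch of 1.36 Mb (chr4:146130528-147492323) held no peak of any list, although 8 zinc finger-named genes of RefSeq lie wholly inside it (Rex2, Zfp600, Zfp978, Zfp981, Zfp988, Zfp991, Zfp992 and Zfp993). The promoters of Rex2 and Zfp600 share runs with that of Zfp979, and the promoter of Zfp988 with those of Zfp985 and Zfp987, which were touched by peaks. On either side of the empty stretch all peak-rich bins of 500 kb were highest in wild-type. The bin from 145.5 to 146.0 Mb held 56, 67 and 61 peaks in wild-type lists, 15, 18 and 16 with mfn2-/-, 25, 31 and 35 with vhl-/- and 28, 41 and 25 with HIF1dPA. The bin from 147.5 to 148.0 Mb held 84, 70 and 76 peaks in wild-type, and from 27 to 41 in the mutant lists. In neither bin did any mutant list reach a wild-type one.

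The chromosome 13 window was split within itself. From 65.5 to 66.0 Mb, wild-type lists held 13, 9 and 11 peaks, mfn2-/- lists 14, 15 and 11, vhl-/- lists 45, 42 and 50 and HIF1dPA lists 46, 55 and 50. From 66.0 to 66.5 Mb the means were 10.3 ± 4.51, 10.7 ± 0.577, 39.7 ± 4.04 and 39.0 ± 7.21, and from 66.5 to 67.0 Mb 4.67 ± 2.31, 1.67 ± 2.08, 34.3 ± 1.53 and 38.0 ± 2.65, in the same order of genotypes. These 3 bins held most of the vhl-/- and HIF1dPA peaks. Among RefSeq genes 1 with a zinc finger name starts there, but Zfp998 and Zfp997, whose assigned peaks lie in these bins, have no RefSeq entry of that symbol. From 65.0 to 65.5 Mb HIF1dPA was also higher, with 12 peaks in every list against 10, 8 and 5 in wild-type. From 67.0 to 67.5 Mb, where 16 such genes start, the order was another: 8.33 ± 1.53 (wild-type), 1.33 ± 1.53 (mfn2-/-), 5.33 ± 1.53 (vhl-/-) and 3.33 ± 0.577 (HIF1dPA). From 67.5 to 68.0 Mb, with 9 such genes, the means were 8.33 ± 1.15, 2.33 ± 0.577, 7.33 ± 0.577 and 5.00 ± 1.73. Peaks lying over RefSeq zinc finger gene bodies, among which Zfp998 and Zfp997 are missing, made up 36.1% ± 4.14 of the chromosome 13 peaks (wild-type), 16.5% ± 8.99 (mfn2-/-), 10.4% ± 1.99 (vhl-/-) and 8.34% ± 1.32 (HIF1dPA). They covered 12 genes in each wild-type list, 3 to 6 in mfn2-/-, 8 to 12 in vhl-/- and 6 to 9 in HIF1dPA. By the authors' assignment, which holds both genes, the peaks assigned to a zinc finger-named gene outside the distal intergenic and downstream classes made up 31.2% ± 8.34 (wild-type), 30.2% ± 7.71 (mfn2-/-), 14.6% ± 0.906 (vhl-/-) and 12.6% ± 0.458 (HIF1dPA), so mfn2-/- lay below wild-type by RefSeq gene bodies and overlapped it by assignment. This measure was chosen after the values were seen.

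**Figure D3:**
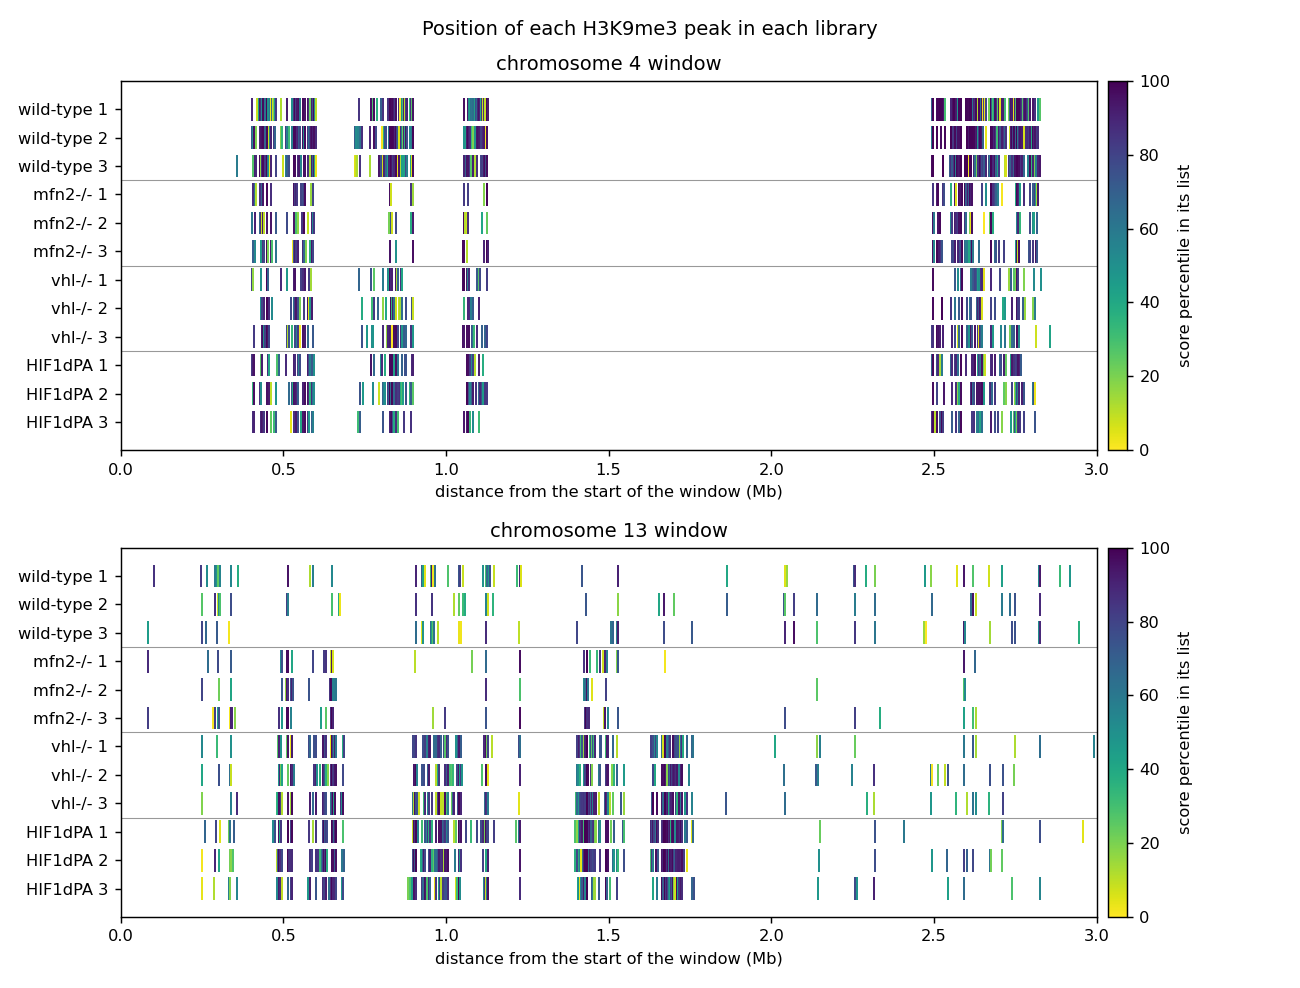
Every H3K9me3 peak of the chromosome 4 (top) and chromosome 13 (bottom) windows as a line at its centre, by distance from the start of the window in Mb, with a row for each library and color for the score percentile within its list. The empty stretch of 1.36 Mb on chromosome 4 is the same in all 12 lists, and the blocks between 0.5 and 2.0 Mb on chromosome 13 are densest in the 6 vhl-/- and HIF1dPA lists.

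Counted over all autosomal bins with at least 12 peaks in the 12 lists, 221 bins were compared, of which 12 lay in the windows. All 9 mutant lists had fewer peaks than all wild-type lists in 4 of these 12 bins, all on chromosome 4, compared with 23.1% of all 221 bins, and more in 0 (0.0% of all bins). For single mutants, mfn2-/- had fewer in 6 window bins (47.1% of all bins) and more in 0 (0.905%), vhl-/- fewer in 4 (36.7%) and more in 3 (3.17%), and HIF1dPA fewer in 5 (31.7%) and more in 4 (4.07%). Lower numbers were common across the autosomes, where wild-type lists were also longer, whereas bins with more peaks than wild-type made up a smaller part of all bins than of the window bins for vhl-/- and HIF1dPA, though not for mfn2-/- or for all mutants. By percent of autosomal peaks, all mutant lists were lower than wild-type in 0 window bins (8.14% of all bins) and higher in 3 (4.52%).

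**Figure D4:**
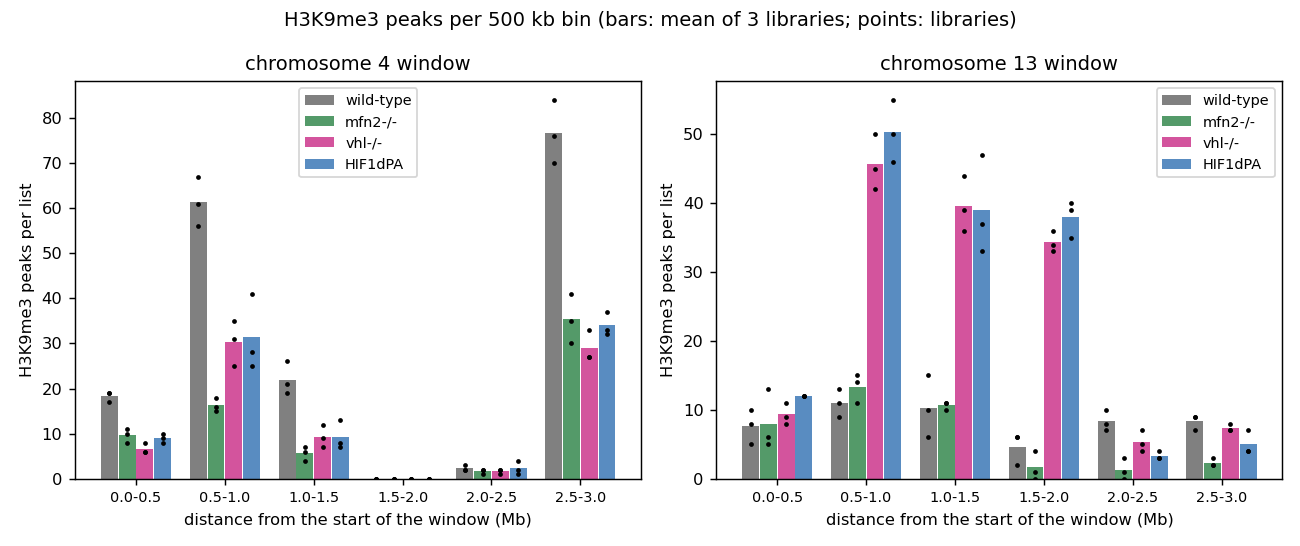
H3K9me3 peaks per list in bins of 500 kb along the chromosome 4 (left) and chromosome 13 (right) windows, by distance from the start of the window in Mb. Bars are means of 3 libraries and points the libraries. Wild-type is highest in the peak-rich chromosome 4 bins (61.3 and 76.7 peaks in the tallest), and vhl-/- and HIF1dPA in the chromosome 13 bins between 0.5 and 2.0 Mb (34.3 to 50.3).

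Which peaks separated the genotypes was asked by merging overlapping peaks of the lists compared into regions and counting those found in every list of a group and in none of the other. Of 198 window regions in at least 3 lists, 8 occurred in every wild-type list but in no mutant one, compared with 4.47% of 873 autosomal regions, so they were no more frequent in the windows. In order of mean score percentile these were regions at Zfp986 (intron 1 of 3, chr4:145880511-145881766, 74.8), Gm20707, Zfp458 (exon 4 of 4, chr13:67255443-67257275, 68.7), Zfp987, Zfp534 (both of its regions in intron 1), Zfp268 and Znf41-ps. Only 2 regions occurred in all 9 mutant lists but in no wild-type one, both in the chromosome 13 window, and these were the 2 such regions of all 873 (0.229%). They lay at Gm26806 (chr13:66488671-66495164, mean percentile 93.4) and at Gm10139 (chr13:65521485-65528226, 84.0), both in the distal intergenic class. Without vhl-/- replicate 1 there was 1 such region, without vhl-/- replicate 3 there were 0 and without mfn2-/- replicate 2 there were 4. For mfn2-/-, 32 of 93 regions were in wild-type alone (30.8% of all regions) and 2 in mfn2-/- alone (3.56%). For vhl-/-, 17 of 149 were in wild-type alone (15.5%) and 36 in vhl-/- alone (9.16%). For HIF1dPA, 22 of 171 were in wild-type alone (15.6%) and 48 in HIF1dPA alone (10.8%). All 36 and all 48 mutant-only regions of vhl-/- and HIF1dPA lay on chromosome 13, and 15 of 17 and 20 of 22 wild-type-only regions lay on chromosome 4. The wild-type lists are shared by these comparisons. With 887 peaks in every list the regions in wild-type alone numbered 0 against all mutants, 6 against mfn2-/-, 6 against vhl-/- and 4 against HIF1dPA. Without 1 wild-type library they numbered 13 to 17 against all mutants, 51 to 56 against mfn2-/- and 32 to 35 against vhl-/-. The highest ranked regions absent from wild-type lay at Zfp998 (intron 3 of 4, chr13:66425634-66428835, mean percentile 96.4 in vhl-/-) and at Zfp640 in both vhl-/- and HIF1dPA, joined by Gm26639 in vhl-/- and Gm26806 in HIF1dPA. In mfn2-/- they lay at Gm10139 and Rps19-ps3. The highest ranked regions of wild-type alone lay at Zfp985 (intron 1, chr4:147567639-147572055, 96.4), Gm20707 and Zfp987 when set against vhl-/- or HIF1dPA, and at Gm13136, Gm13148 and Zfp987 when set against mfn2-/-.

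By base pairs, libraries of 1 genotype shared more of their window peaks than libraries of different genotypes. The mean Jaccard index (overlap in base pairs divided by the union) was 0.399 within and 0.253 between genotypes (difference 0.146, exact p = 0.000195, adjusted p = 0.00286). Wild-type lists were most alike (0.476). Pairs of a vhl-/- and a HIF1dPA list reached 0.372, compared with 0.376 within vhl-/- and 0.372 within HIF1dPA, values close to each other. Pairs of mfn2-/- and HIF1dPA lists shared least (0.196), and mfn2-/- shared 0.257 with wild-type and 0.217 with vhl-/-.

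The authors assigned window peaks to 95 genes, 43 on chromosome 4, 34 on chromosome 13 and 18 on chromosome 2, and 33 of them have a zinc finger name. These 33 genes, chosen by symbol alone, took 52.6% of the window peaks. Per list, 67, 64 and 61 genes had a peak in wild-type lists, 34, 33 and 40 with mfn2-/-, 49, 53 and 55 with vhl-/- and 55, 51 and 53 with HIF1dPA. No mutant list reached a wild-type list (difference of -17.0 genes, exact p = 0.00909, adjusted p = 0.0231; 4 genotypes: exact p = 0.000649, adjusted p = 0.00429). Without any 1 of the wild-type libraries or mfn2-/- replicate 3, the adjusted p of that difference was 0.0556 to 0.133, and at equal list length it was -5.44 genes and not called (exact adjusted p = 0.402). A total of 17 genes had a peak in all 12 lists, 13 on chromosome 4 and 4 on chromosome 13, and 13 of them have a zinc finger name.

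On chromosome 4 the genes with the most constant and highest ranked peaks were Zfp985, Zfp982, Platr16, Znf41-ps and Zfp979, each present in all 12 lists. Zfp979 (chr4:147611936-147642508 in RefSeq) had 15, 13 and 19 peaks in wild-type lists, 10, 6 and 7 with mfn2-/-, 10, 9 and 10 with vhl-/- and 10, 8 and 7 with HIF1dPA. Its wild-type and mutant lists did not overlap. Zfp985 had 10, 9 and 14 peaks in wild-type and 7, 10 and 8 in mfn2-/-, which overlapped, and 4 to 6 in the other mutants. Its best peak stood at a mean percentile of 98.6. Zfp982 showed no such order, with 4, 3 and 3 peaks in wild-type lists, 3, 3 and 5 with mfn2-/-, 2, 1 and 5 with vhl-/- and 6, 2 and 4 with HIF1dPA. Platr16, a noncoding transcript, had 9, 8 and 11 peaks in wild-type and 3 to 7 in the mutant lists. Znf41-ps, a pseudogene, had 5, 8 and 8 in wild-type lists, 2, 2 and 1 with mfn2-/-, 6, 4 and 6 with vhl-/- and 4, 7 and 4 with HIF1dPA.

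In all, 10 of 43 chromosome 4 genes had fewer peaks in every mutant than in every wild-type list (Platr16, Zfp979, Zfp984, Zfp987, Zfp990, Zfp534, Zfp986, Zfp268, Gm20707 and Gm13137), and 0 had more. Of the 43, 40 had peaks in at least 3 lists, and over all 1277 autosomal genes with peaks in at least 3 lists 8.22% had fewer in every mutant list. At Zfp987 wild-type lists had 18, 11 and 14 peaks and mutant lists 1 to 7. At Zfp534 they had 18, 14 and 11 and the mutants 2 to 6. At Zfp986 the numbers were 17, 16 and 13 and 1 to 8. Mfn2 itself lies in this window (chr4:147873586-147904909). Within 100 kb of it, a distance chosen after the values were seen, wild-type lists held 15, 13 and 10 peaks and mfn2-/- lists 8, 5 and 6. The vhl-/- lists held 3, 3 and 2 there and the HIF1dPA lists 0, 4 and 2. This distance reaches into the peaks assigned to Zfp984 and Gm20707, which are among the genes named above. The numbers were not set against list length, and a cause was not tested.

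On chromosome 13 the leading genes were Zfp998, Gm26806, Zfp997, Zfp369 and Gm10139. Zfp998 had 1, 1 and 1 peak in wild-type lists, 4, 7 and 4 with mfn2-/-, 17, 13 and 23 with vhl-/- and 21, 18 and 17 with HIF1dPA, with no overlap between wild-type and any mutant. A peak assigned to the Zfp998 promoter was the highest scoring window peak in all vhl-/- and HIF1dPA lists and in 1 mfn2-/- list. In vhl-/- it ranked 1, 1 and 3 in its whole list and was 8794, 7427 and 9118 bp wide. In HIF1dPA it ranked 2, 2 and 2, with widths of 4721, 9026 and 8784 bp. The best Zfp998 peak ranked 6, 9 and 12 in the mfn2-/- lists. The highest scoring window peaks of the wild-type lists lay on chromosome 4 instead, at Zfp534 (3887 bp, rank 7), Zfp979 (12256 bp, rank 8) and Zfp985 (7559 bp, rank 7, in the 3′ UTR), and the best chromosome 13 peak of those lists ranked 147, 162 and 115.

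Gm10139 had 1, 2 and 0 peaks in wild-type lists, 7, 9 and 5 with mfn2-/-, 10, 10 and 14 with vhl-/- and 10, 11 and 13 with HIF1dPA. Gm26639 had 3, 4 and 0 peaks in wild-type lists, 8, 7 and 6 with mfn2-/-, 17, 21 and 22 with vhl-/- and 16, 22 and 21 with HIF1dPA. With Zfp998, these were the 3 of 34 genes whose peaks were more numerous in every mutant than in every wild-type list. Of the 34, 28 had peaks in at least 3 lists, and of the 1277 autosomal genes 3 (0.235%) were higher in this way. Zfp640 (chr13:66670274-66680803) separated the mutants most: it had 0, 3 and 2 peaks in wild-type lists, 1, 0 and 0 with mfn2-/-, 34, 28 and 28 with vhl-/- and 36, 32 and 32 with HIF1dPA. Peaks assigned to it spread from 66628565 to 66762372, well past the gene, and were as wide as 8761 bp. Gm26806, Rybp-ps and Cbx3-ps1, of which the last 2 were picked after their values were seen, also had more peaks in every vhl-/- and HIF1dPA list than in any wild-type list. Of the 34 genes, 7 were higher in this way with vhl-/- and 1 lower, and 7 were higher with HIF1dPA and 2 lower. The share over all autosomal genes was not counted for single mutants. Rybp-ps, a pseudogene, had 10, 7 and 9 in wild-type, 0, 0 and 2 in mfn2-/-, and 17 to 21 in the others. Zfp369 (7, 6 and 2 peaks in wild-type and 2 to 10 in mutants) and Zfp997 (6, 4 and 1 in wild-type and 1 to 10 in mutants) overlapped across genotypes.

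**Figure D5:**
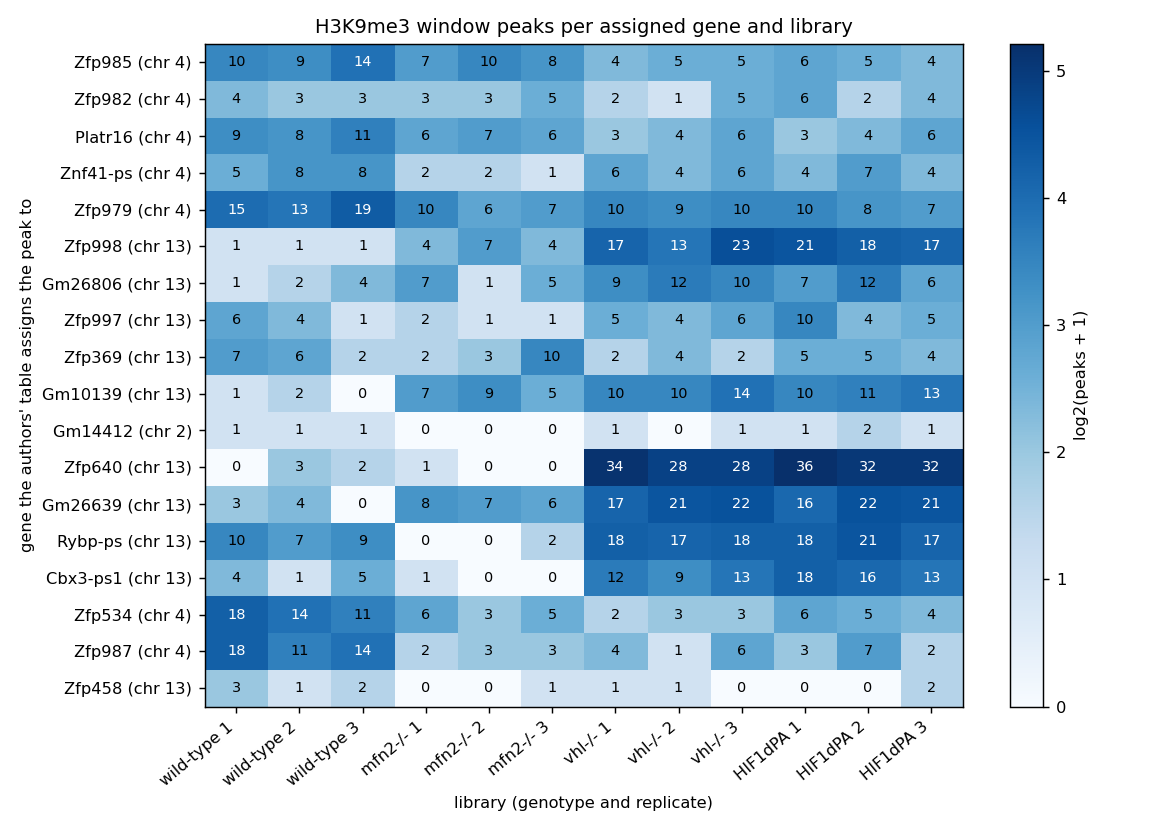
Number of H3K9me3 window peaks assigned to each gene (rows) in each library (columns), with color on a log2(peaks + 1) scale. The upper 11 rows are the leading genes of chromosome 4, chromosome 13 and chromosome 2, and the lower rows are other genes named in the text. Zfp640 runs from 0 to 3 peaks in wild-type and mfn2-/- lists and from 28 to 36 in vhl-/- and HIF1dPA lists, and Zfp987 is highest in wild-type (11 to 18).

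Feature classes differed between both clusters as well. On chromosome 4, 37.6% ± 0.921 of wild-type peaks were at promoters, 32.0% ± 1.39 of mfn2-/-, 45.0% ± 3.12 of vhl-/- and 44.1% ± 4.14 of HIF1dPA peaks (SD, n = 3 each). On chromosome 13 most peaks of vhl-/- (77.4% ± 1.01) and HIF1dPA (81.3% ± 1.54) were distal intergenic, compared with 51.9% ± 5.45 in wild-type and 54.5% ± 4.35 in mfn2-/-. Peaks in 3′ UTRs, where the finger-coding last exon of these genes ends, made up 14.4% ± 5.43 of chromosome 13 peaks in wild-type. The values were 1.79% ± 1.57, 2.38% ± 1.18 and 1.80% ± 0.727 in mfn2-/-, vhl-/- and HIF1dPA. These are parts of unlike totals, on average 50.3 (wild-type), 37.3 (mfn2-/-), 142 (vhl-/-) and 148 (HIF1dPA) peaks per list. A lower part is therefore not an equal drop in the number of 3′ UTR peaks, which was not compared.

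Genes that write, read or erase H3K9me3 were looked at in the whole lists. Of 16 such genes, 2 had an H3K9me3 peak: Atf7ip, a partner of SETDB1, in 6 lists and Setdb1 itself in 1. H3K27me3 peaks were found at 2, Kdm4d, a demethylase, and Atrx, a remodeler that binds H3K9me3 chromatin, in 3 lists each. The share over all genes was not counted, so these numbers are not read as a result about the group. The other repressive mark was rare in the windows. H3K27me3 lists held 0 to 6 window peaks each, 37 of 34244 in all (0.108%), and 20 of these were assigned to Sycp2, a gene of meiotic chromosome pairing, in 10 lists. Of the 37, 6 overlapped an H3K9me3 peak of the same genotype.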

How the data were processed

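ChIP-seq was performed by the authors on regenerating myofibers with antibodies to H3K9me3 and H3K27me3. Per the labels, BWA 0.7.5, MACS (version not given in the sources used here), deepTools 3.5.0 and the mm10 build were used, and peaks were called for each library. The deposited score of each peak is 10 times the negative log10 of its p-value, as the authors' peak caller wrote it. Use of the input and of reads that match several places is not given in the sources used here. Peaks, gene assignments and feature classes were used as deposited. Under Python 3.11.15 (with pandas 2.3.3 and numpy 2.4.6, and figures drawn with matplotlib 3.10.9), peaks wholly inside each window were counted per library. A genotype difference was tested by exact permutation of the libraries (369600 arrangements for 4 genotypes, 220 for 3 against 9), two-sided, with a threshold of 0.05 after Benjamini-Hochberg adjustment over 33 tests. Ratios are of geometric means after adding 1 to each number. Merged regions needed peaks in at least 3 lists and bins at least 12 peaks over the 12 lists. The scripts were tested on simulated data. Leading genes were, for each window, up to 5 genes with peaks in the most lists, the genes of regions separating genotypes, the highest scoring peak of each library, and fixed lists of zinc finger genes, H3K9me3 pathway genes and cell markers. Members and lists were chosen with earlier results of these data known, and other genes were named after their values were seen. Alternatives were a score of at least 100, lists of equal length, joined peaks, other denominators, overlaps and bin sizes, a replicate block and leaving out each library. Sequences came from RefSeq (GRCm38.p6, the build of mm10). No genome was used, so peak sequences were not analysed here.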

Additional observations from a re-analysis of the deposited data

Results flagged for a closer look

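Each mutant was set against the other 2 mutants, without wild-type, in 15 exact permutation tests (3 against 6 libraries, two-sided, smallest possible p = 0.0119). In 5 of them p was below 0.05 without adjustment for the number of tests. The peak numbers were not set against list length. The mfn2-/- lists held 0.467 times as many window peaks as the other mutants over the 3 windows (exact p = 0.0119), 0.357 times as many on chromosome 2 (exact p = 0.0238) and 0.263 times as many on chromosome 13 (exact p = 0.0119). The part of window peaks on chromosome 13 differed by -28.1 percentage points in mfn2-/- (exact p = 0.0119). The HIF1dPA lists held 1.18 times as many chromosome 4 peaks as the other mutants (exact p = 0.0476).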

How the results depend on the processing

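Of 33 tested results 17 passed the threshold, and 9 of these kept direction and call under every alternative run, among them the number of chromosome 4 peaks (ratio 0.321 to 0.597) and the part of window peaks on chromosome 13. Causes of the changes below were not tested. Depth is unknown, so each list's cutoff limits which peaks could be seen. Values are mutants against wild-type unless an adjusted p for 4 genotypes is named.

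With a score of at least 100, the width ratio was 0.825 (reversed, 4 genotypes exact adjusted p = 0.0125), the 4 genotypes differed in percentile over all windows (adjusted p = 0.0273), the chromosome 4 share differed by -8.78 points (4 genotypes adjusted p = 0.0193), the chromosome 4 percentile by -7.85 (not called, 4 genotypes adjusted p = 0.0749), the chromosome 13 number had a ratio of 4.60 and the chromosome 13 percentile differed by 16.7 (not called). Separating regions numbered 1 in all mutants only, 14 in wild-type against mfn2-/-, 17 in vhl-/- only, 8 in wild-type against HIF1dPA and 14 in HIF1dPA only. Bins with more peaks numbered 1 for all mutants and 1 for mfn2-/-, and those with fewer in HIF1dPA 3.

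With 887 peaks in every list, the width ratio was 0.756 (reversed, 4 genotypes exact adjusted p = 0.0205), the genes differed by -5.44 (not called), the chromosome 4 share by -8.76 points (4 genotypes adjusted p = 0.0232), the chromosome 4 percentile by 0.279 (reversed, 4 genotypes exact adjusted p = 0.467) and the chromosome 13 number had a ratio of 4.54. Regions in wild-type only numbered 0 against all mutants, 6 against mfn2-/-, 6 against vhl-/- and 4 against HIF1dPA. Bins with fewer peaks numbered 2 for all mutants, 3 for mfn2-/-, 2 for vhl-/- and 2 for HIF1dPA, bins with more 3 for all mutants and 3 for mfn2-/-, and bins with a lower percent 3.

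With peaks within 1000 bp joined, the share in all windows differed by 4.90 points (now called), the chromosome 4 percentile by -5.84 and the chromosome 13 share by 4.40 points (both no longer called). By share of base pairs the chromosome 2 window differed among 4 genotypes (exact adjusted p = 0.0314), and with bins of 1 Mb HIF1dPA had more peaks in 2.

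Replicate numbers did not pair the libraries: deviations of same-numbered libraries correlated at -0.0155 on average, and 0 libraries matched best with their own number. With the replicate block, 6 calls were lost: peak number (exact adjusted p = 0.0764), covered length (0.0621) and chromosome 13 percentile (0.091) among 4 genotypes, and the differences of -17.0 genes, -6.36 points of chromosome 4 percentile and 6.63 points of chromosome 13 share.

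Leaving out 1 library gave ranges of 0.0151 to 0.0933 (adjusted p) and -7.58 to -4.98 points for the chromosome 4 percentile, 0.0407 to 0.230 (adjusted p) for the chromosome 2 number, called without wild-type replicate 3 or HIF1dPA replicate 2, -18.5 to -15.2 genes, 4.65 to 6.12 points for the share in all windows, called without mfn2-/- replicate 3, 6.05 to 7.34 points for the chromosome 13 share, and 0.0416 to 0.470 (adjusted p) and -1.77 to -1.11 points for the chromosome 4 share, called without mfn2-/- replicate 2. Regions in wild-type only ranged from 8 to 17 (all mutants), 32 to 56 (mfn2-/-) and 17 to 35 (vhl-/-), and regions in mutants only from 0 to 4, 2 to 6 and 36 to 56. Bins with more peaks ranged from 0 to 1 for all mutants and for mfn2-/- (1 without mfn2-/- replicate 3), and bins with a lower percent from 0 to 1 (1 without wild-type replicate 2).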
